A study of Danio rerio with 116 samples.

Results

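Germ cells of the undifferentiated zebrafish gonad were compared with EGFP -ve control cells at 14 and 21 days post-fertilisation (dpf). The comparison comprised every library of those ages, 12 of the 116 in the series, with 3 libraries (A to C) in each of 4 groups: EGFP +ve cells and control cells at 14 dpf, and EGFP +ve cells and control cells at 21 dpf. All fish carried the vas:eGFP transgene, in which the vasa promoter drives EGFP in germ cells, so control and EGFP +ve cells shared the genotype. Each library pooled 10 fish, labelled as males and females together. No treatment was given. Cells were dissociated enzymatically and separated by fluorescence-activated cell sorting. The labels call both controls whole embryo EGFP -ve cells, while the study's methods describe dissection of the gonadal region after 14 dpf, so that the control cells of 21 dpf may come from fewer tissues than those of 14 dpf. The files hold DNA methylation calls and no expression values, and the germ cell identity of the sorted cells was therefore not checked against marker genes here.

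In zebrafish the germline is set aside early by inherited germ plasm, and vasa, an RNA helicase of the germ plasm, marks it throughout life. At 14 and 21 dpf the gonad is a bipotential "juvenile ovary" that holds oocyte-like cells in prospective females and males alike, before it becomes an ovary or a testis. Cytosines followed by guanine (CG sites) are methylated over most of a vertebrate genome, whereas CG-dense stretches at gene starts are often unmethylated. Bisulfite converts unmethylated cytosine and leaves methylated cytosine intact, so each sequenced CG gives a call of methylated or unmethylated.

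The 12 libraries held 257977 CG calls from 76284 reads. A library had between 8735 and 53016 calls, on 2610 to 15349 reads, and EGFP +ve replicate A of 14 dpf had the fewest calls of the whole series. Its count in the deposited data lay below the minimum sequencing depth in CG calls that the study states. EGFP +ve libraries were shallower, with a median of 14442 calls against 25814 in control libraries. The counting error of the methylation of 1 library, taken over its reads as a standard error (SE), lay between 0.361 and 0.816 percentage points. Reads that repeated the call positions of another read made up 0.198% to 1.01% of a library. According to the read names, both kinds of cell shared sequencing runs at 21 dpf (A and B on run 92, C on run 117). At 14 dpf the control libraries lay on run 93 (with 34.9% of the reads of A on run 92), and of the EGFP +ve libraries B lay on run 92, C on run 157 and A on 3 runs with 48.4% of its reads on run 93.

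Methylation across chromosomes 1 to 25 was high in both kinds of cell, and no difference between them passed the test. Global methylation is given here as the mean over 10 Mb windows of the percentage of methylated calls. At 14 dpf it was 78.7%, 75.4% and 75.7% in EGFP +ve replicates A, B and C. The 3 control libraries of that age had 76.0%, 75.8% and 76.5%. At 21 dpf the EGFP +ve libraries had 77.6%, 80.3% and 76.8%. The control libraries of 21 dpf had 76.6%, 74.7% and 77.3%. The groups overlapped at both ages, and the high values at each age were single EGFP +ve libraries, A at 14 dpf and B at 21 dpf. The group means were 76.6% ± 1.81 (SD, n = 3) against 76.1% ± 0.389 (SD, n = 3) at 14 dpf. At 21 dpf they were 78.2% ± 1.80 (SD, n = 3) against 76.2% ± 1.31 (SD, n = 3).

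**Figure D1:**
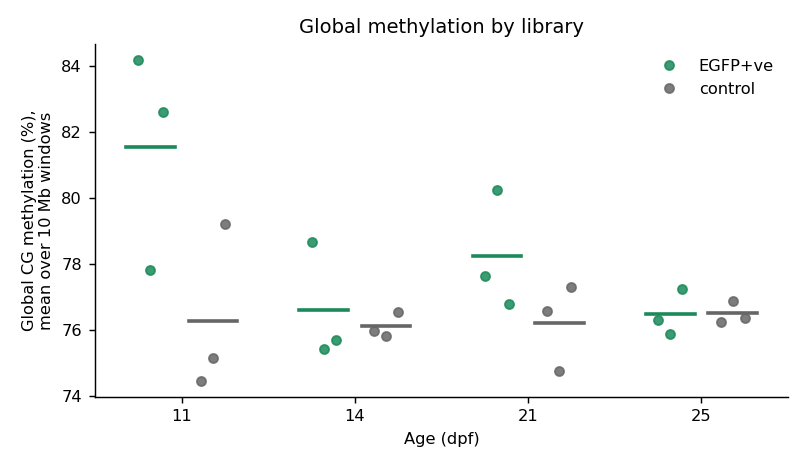
Global CG methylation (%, mean over 10 Mb windows of chromosomes 1 to 25) of each library at 11, 14, 21 and 25 dpf. Points are libraries and bars are group means (n = 3). The groups overlap at 14 and 21 dpf, with means of 76.6% and 78.2% in EGFP +ve cells and 76.1% and 76.2% in control cells.

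EGFP +ve cells minus control cells gave a mean over both ages of 1.26 percentage points (SE 0.84), with a p of 0.215 in an exact permutation test (two-sided, labels exchanged within age). All such tests of the 12 libraries had 400 arrangements, and the smallest p they can give is 0.005. The 95% interval, which holds the shifts that the exact permutation test did not reject, ran from -0.52 to 3.10 percentage points. The difference was 0.74 points without EGFP +ve replicate A of 14 dpf, and without EGFP +ve replicate B of 21 dpf it was 0.76 points. The difference was 0.49 points at 14 dpf and 2.03 points at 21 dpf, and the change of 1.53 points between the ages had a p of 0.375 (exact permutation test, ages exchanged within each kind of cell). Each library was also assigned to the run with the largest part of its reads, and compared within runs that held both kinds of cell at an age. The mean difference over these runs, weighted by their numbers of libraries, was 2.21 points. It was not a mean of the ages. For 14 dpf it rested on EGFP+ve replicate A alone against the controls. All reads of that replicate were used, although 48.4% lay on run 93, so the comparison was not strictly within a run. On run 117 at 21 dpf it rested on replicate C of each kind of cell. The neighbouring ages were compared with 14 and 21 dpf by exact permutation tests of all libraries. The age of 11 dpf was taken from the library titles, since the day field of those libraries gives a different age. At 11 dpf the difference was 5.27 points, and the difference at 14 and 21 dpf minus that at 11 dpf was -4.01 points (exact permutation test, p = 0.0900). At 25 dpf it was -0.02 points, and the contrast with 14 and 21 dpf was 1.28 points (exact permutation test, p = 0.320).

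A set of 17 measures was compared between EGFP +ve and control libraries, and p-values were adjusted over them by the Benjamini-Hochberg method. Other properties of the read classes and the parts of chromosome 4 were also tested, outside the 17 and without adjustment. The lowest p among them, picked from many overlapping tests, belonged to reads with 4 to 7 calls that were at least 75% methylated. Their share was higher in EGFP +ve cells by 2.18 points (exact permutation test, p = 0.025). It overlaps with the methylation of reads with 4 to 7 calls, which is among the 17. Chromosome 4 after 25 Mb differed by 1.09 points (exact permutation test, p = 0.73). None of the 17 (0%) passed an adjusted p of 0.05, and 3 (17.6%) had an unadjusted p under 0.05 by the exact permutation test. A single measure at the smallest possible p would have an adjusted p of 0.085, so that at least 2 were needed for a call. The 3 measures were the methylation of reads with 2 or 3 CG calls, that of reads with 4 to 7 calls, and the share of reads on the mitochondrial genome, each with an adjusted p of 0.227.

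**Figure D2:**
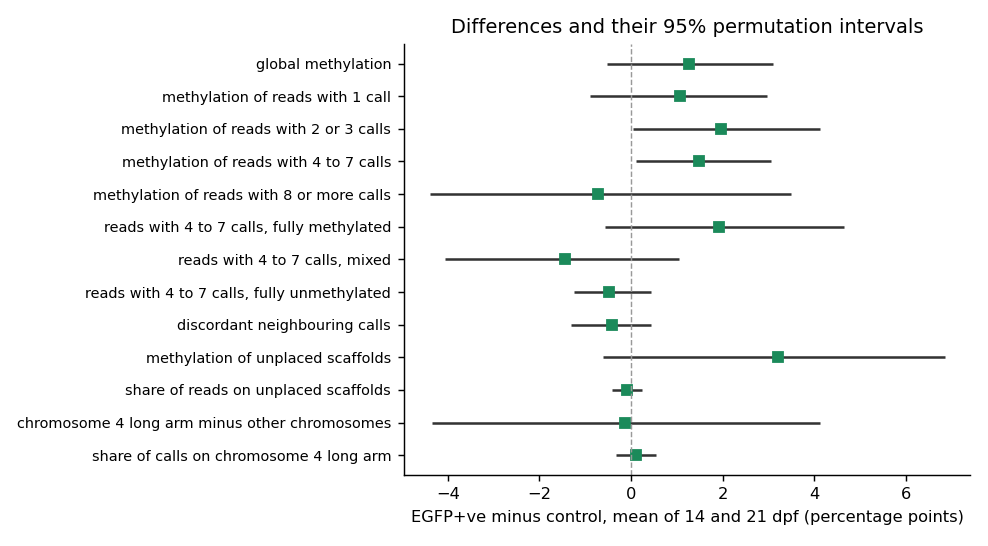
Difference between EGFP +ve and control cells (percentage points, mean of 14 and 21 dpf) in 13 measures, with squares for the estimate and lines for the 95% interval of the exact permutation test. The intervals of reads with 2 or 3 calls (0.04 to 4.12) and of reads with 4 to 7 calls (0.12 to 3.06) lie above 0, before adjustment over the 17 measures.

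Reads were grouped by the number of CG calls they carry, a measure of how CG-dense the sequenced stretch is. Reads with 1 call made up 22.8% to 28.2% of the reads of a library on chromosomes 1 to 25, and reads with 8 or more calls 5.81% to 8.04%. In every group the mean methylation was highest in reads with 2 to 7 calls and lowest in reads with 8 or more, the class richest in CG. The classes were not tested against each other.

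In reads with 2 or 3 calls, the EGFP +ve libraries of 14 dpf had 81.6%, 77.5% and 78.0% methylated calls. The controls of 14 dpf had 78.6%, 77.0% and 76.3%. At 21 dpf the EGFP +ve libraries had 80.1%, 83.6% and 80.3%. The controls of 21 dpf had 79.0%, 78.3% and 80.0%, and here all EGFP +ve values lay above the control values, while the groups of 14 dpf overlapped. At 21 dpf the lowest EGFP +ve value was 80.15% and the highest control value 80.01%. The mean difference over both ages was 1.97 points (SE 0.96; exact permutation test, p = 0.0400, adjusted p = 0.227).

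In reads with 4 to 7 calls the separation lay at the other age. EGFP +ve replicates A to C of 14 dpf had 79.8%, 78.3% and 78.1%. Their controls had 77.8%, 76.8% and 78.0%, all lower, with the closest values at 78.07% and 77.95%. In both classes the gap was smaller than the counting error of a whole library. A separation of 3 libraries from 3 has p = 0.1 in the exact permutation test at 1 age, the smallest it can give. At 21 dpf the groups overlapped, with 79.7%, 81.9% and 78.0% in EGFP +ve libraries. The controls of 21 dpf had 77.7%, 77.4% and 79.2%. The mean difference was 1.49 points (SE 0.71; exact permutation test, p = 0.0350, adjusted p = 0.227). Without EGFP +ve replicate B of 21 dpf the difference was 0.98 points in reads with 4 to 7 calls (exact permutation test, p = 0.120) and 1.41 points in reads with 2 or 3 calls (exact permutation test, p = 0.0850). Without EGFP +ve replicate A of 14 dpf these differences were 1.21 points (exact permutation test, p = 0.07) and 1.33 points (exact permutation test, p = 0.105). The highest were 1.97 points in reads with 4 to 7 calls, without EGFP +ve replicate C of 21 dpf, and 2.36 points in reads with 2 or 3 calls, without EGFP +ve replicate B of 14 dpf. The unadjusted p was under 0.05 in 6 and 5 of the 12 omissions (exact permutation test). The lowest adjusted p were 0.08 and 0.17.

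**Figure D3:**
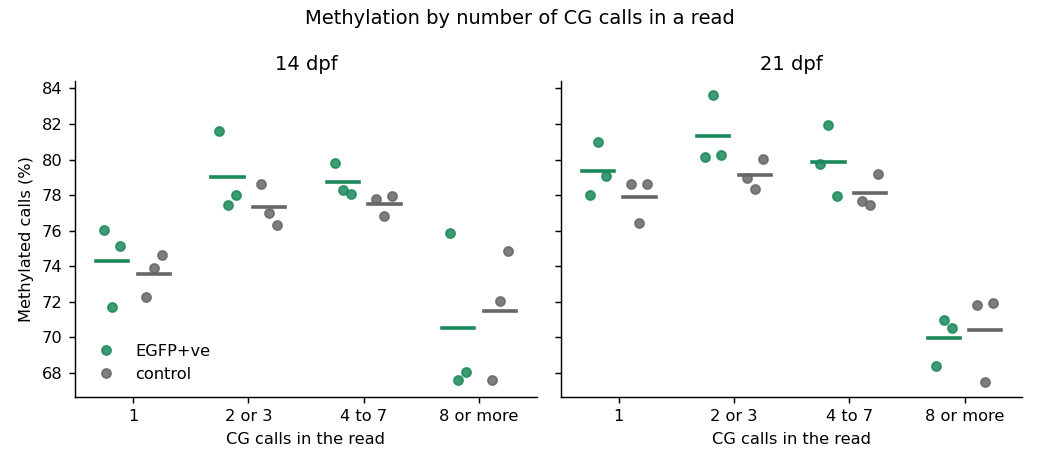
Percentage of methylated calls in reads with 1, 2 or 3, 4 to 7 and 8 or more CG calls, at 14 dpf (left) and 21 dpf (right). Points are libraries and bars are group means (n = 3). Reads with 8 or more calls had the lowest means, from 70.0% to 71.5%, and the points of reads with 1 call are higher at 21 dpf than at 14 dpf in both kinds of cell.

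The outer classes showed smaller differences against their spread. Reads with 1 call, which lie in CG-poor sequence, were methylated at 74.3% ± 2.30 (SD, n = 3) in the germline and 73.6% ± 1.22 (SD, n = 3) in controls at 14 dpf. The values of 21 dpf were 79.4% ± 1.50 (SD, n = 3) and 77.9% ± 1.27 (SD, n = 3). Their mean difference was 1.08 points (SE 0.94; exact permutation test, p = 0.265), with a 95% interval from -0.89 to 2.97. It was 0.64 points without EGFP +ve replicate A of 14 dpf, and 1.73 points without EGFP +ve replicate B of that age (exact permutation test, p = 0.0400). It was 0.67 points without EGFP +ve replicate B of 21 dpf and 0.71 points without control replicate B of 21 dpf. Reads with 8 or more calls ranged from 67.6% to 75.9% in EGFP +ve libraries and from 67.5% to 74.8% in control libraries. Their mean difference was -0.71 points (SE 1.90; exact permutation test, p = 0.705), with an interval from -4.40 to 3.48. Within shared runs this difference was 1.15 points, on the other side of 0.

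The methylation of single reads was then described by their state, in reads with 4 to 7 calls. Most of these reads were uniform, since a fully methylated read was the commonest state in every library, and fully unmethylated reads were the rarest. Fully methylated reads made up 51.7% ± 0.968 (SD, n = 3) of those in the germline and 50.6% ± 2.02 (SD, n = 3) in controls at 14 dpf. At 21 dpf they made up 56.0% ± 3.57 (SD, n = 3) and 53.3% ± 1.21 (SD, n = 3). EGFP +ve replicate B of 21 dpf stood highest, at 60.1%, whereas the other EGFP +ve libraries of 21 dpf had 53.6% and 54.3%. The mean difference was 1.91 points (SE 1.27; exact permutation test, p = 0.125), and 0.89 points without that library.

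Mixed reads, with methylated and unmethylated calls side by side, ranged from 31.9% to 40.3% in EGFP +ve libraries and from 36.6% to 42.4% in control libraries. Their mean difference was -1.44 points (SE 1.23; exact permutation test, p = 0.255). It was -0.56 points without EGFP +ve replicate B of 21 dpf and -2.21 points without EGFP +ve replicate A of 21 dpf. Fully unmethylated reads made up 7.95% to 9.92% in EGFP +ve and 8.21% to 9.63% in control libraries, a mean difference of -0.47 points (SE 0.38; exact permutation test, p = 0.235). Neighbouring calls of the same read, at most 50 bp apart, differed in state in 15.3% ± 0.618 (SD, n = 3) of pairs in the germline and 15.5% ± 0.865 (SD, n = 3) in controls at 14 dpf. The values of 21 dpf were 13.6% ± 0.952 (SD, n = 3) and 14.4% ± 0.262 (SD, n = 3), and the mean difference was -0.43 points (SE 0.42; exact permutation test, p = 0.340). It was -0.16 points without EGFP +ve replicate B of 21 dpf, -0.28 points without EGFP +ve replicate C of 14 dpf or control replicate C of 14 dpf, and -0.68 points without control replicate A of 14 dpf. Fully methylated, mixed and fully unmethylated reads and discordant calls overlapped between the groups at both ages.

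Across the 2 ages, the reads with 1 call differed more than they did between kinds of cell. This contrast was chosen after the values were seen. The EGFP +ve libraries of 14 dpf had 76.0%, 71.7% and 75.2% methylation in these reads. Those of 21 dpf had 78.0%, 81.0% and 79.0%, all higher. Control libraries had 72.3%, 73.9% and 74.6% at 14 dpf. At 21 dpf they had 78.6%, 76.4% and 78.6%, again all higher. Over both kinds of cell the difference was 4.68 points, with p = 0.005 in the exact permutation test (ages exchanged within each kind of cell), the smallest p it can give. After adjustment over the 17 measures p was 0.0567, and it did not pass. Leaving out control replicate A or EGFP +ve replicate C of 14 dpf, or EGFP +ve replicate A of 21 dpf, brought the adjusted p to 0.0425 (exact permutation test), with differences of 4.35, 4.90 and 5.01 points. With each library left out, the p of this contrast was never below 0.005 (exact permutation test). The lower adjusted p therefore came from the p-values of other measures. The age of the fish moved with other properties of the libraries. Reads carried 3.21 to 3.35 calls in the 6 libraries of 14 dpf and 3.35 to 3.55 in those of 21 dpf. Runs 93 and 157 held reads of 14 dpf only, and the source of the control cells may have differed. Runs 92 and 117 held reads of both ages, and they went opposite ways. On run 92, reads with 1 call were methylated at 71.2% and 71.7% in the 2 libraries of 14 dpf and at 76.4% to 81.0% in the 4 libraries of 21 dpf. On run 117, the part of EGFP +ve replicate A of 14 dpf had 93 of 108 such reads methylated (86.1%, 95% Wilson interval 78.3% to 91.4%), above the 78.6% and 79.0% of the 2 libraries of 21 dpf, which lie within that interval. Any parts of age, dissection and run in this difference cannot be told apart. Methylated calls on the mitochondrial genome, which failed bisulfite conversion can also give, were more frequent at 21 dpf too. The part of failed conversion in the difference of reads with 1 call was not tested. Global methylation differed by 0.87 points over the same contrast (exact permutation test, p = 0.315).

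No single chromosome separated germ cells from controls. Of the 25 chromosomes, 0 (0%) were called at an adjusted p under 0.05, and 1 (4%) had an unadjusted p under 0.05, by an exact permutation test of each chromosome with adjustment over the 25. By limma, weighted by calls, 0 were called and 0 had an unadjusted p under 0.05. At least 3 chromosomes at the smallest possible p were needed for a call. In calls simulated on these depths, 5 of the 25 chromosomes were shifted, in 1 draw for each shift. The exact permutation test recovered all 5 at a shift of 10 points and 0 of 5 at a shift of 5 points. Whether limma would call such shifts of chromosomes was not tested. A chromosome had between 231 and 2848 calls in a library, with a median of 690.5.

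The mean over both ages was higher in EGFP +ve cells on 20 chromosomes and lower on 5, with a median difference of 0.92 points. Weighted by calls in limma, it was higher on 16 and lower on 9, with a median of 0.44 points. The unweighted direction held at both ages for 12 of the higher chromosomes and 2 of the lower. Across the 25 chromosomes the differences at 14 and at 21 dpf had a Pearson correlation of -0.228 (Spearman 0.0431), while the levels of EGFP +ve and control cells had a correlation of 0.478 (Spearman 0.435). The points share libraries and depth, so these correlations are descriptions across chromosomes and not replicates. The levels themselves ranged from 75% to 81.2% in EGFP +ve cells and from 73.5% to 79.4% in controls.

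Chromosome 3 had the highest difference of unweighted library means, at 3.70 points (SE 1.38; exact permutation test, p = 0.0300, adjusted p = 0.518). Weighted by calls it had 2.06 points, below chromosomes 2 (3.05), 9 (2.88), 8 (2.72) and 6 (2.29). Its EGFP +ve libraries had 81.1%, 78.1% and 79.2% at 14 dpf. The controls had 74.7%, 76.0% and 74.4%, all lower. At 21 dpf the EGFP +ve libraries had 80.0%, 81.2% and 73.2%, of which replicate C, the deepest of the EGFP +ve libraries, lay below every control (74.0%, 75.4% and 76.1%). Chromosomes 8 and 6 followed, with differences of 3.55 points (SE 2.10) and 3.18 points (SE 1.82). At the other end, chromosome 24 was lower in EGFP +ve cells by -2.72 points (SE 1.61; exact permutation test, p = 0.14). Chromosomes 19 and 23 had -1.80 points (SE 2.39) and -1.20 points (SE 2.45). Chromosome 10, singled out after its values were seen, went opposite ways at the 2 ages without overlap. Its EGFP +ve libraries lay between 80.7% and 84.2% at 14 dpf, above controls of 71.4% to 77.2%. At 21 dpf they lay between 69.7% and 77.1%, below controls of 78.2% to 80.1%. The groups did not overlap on 4 of 25 chromosomes (16%) at 14 dpf and on 1 of 25 (4%) at 21 dpf.

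**Figure D4:**
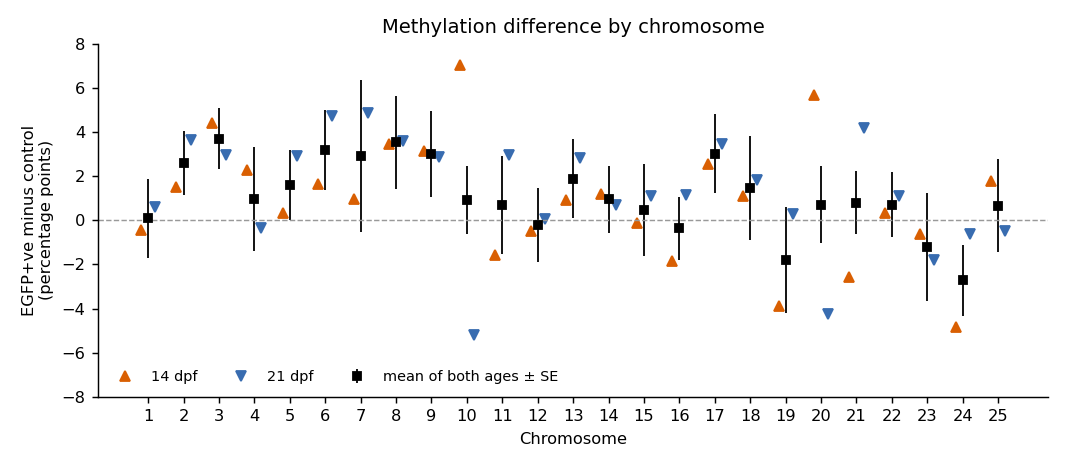
Methylation of EGFP +ve minus control cells on each chromosome (percentage points). Triangles are the differences at 14 and 21 dpf, and squares with bars are the mean of both ages with its SE (3 libraries in each group). With libraries unweighted, chromosome 3 has the highest mean (3.70, against 2.06 weighted by calls) and chromosome 24 the lowest (-2.72), and chromosome 10 lies at 7.06 at 14 dpf and -5.22 at 21 dpf.

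Within chromosomes, 137 of 146 windows of 10 Mb had at least 20 calls in every library and were tested with limma, with age and kind of cell in the model and calls as weights. None was called (0 of 137, 0%), and 5 (3.65%) had an unadjusted p under 0.05. The lowest adjusted p of the limma test was 0.832. In simulated calls with 20 of 137 windows shifted, limma recovered 11 of 20 shifts of 10 points with 0 false calls and 3 of 20 shifts of 5 points with 2 false calls. EGFP +ve cells were higher in 76 windows (55.5%), with a median difference of 0.53 points. Without the weights they were higher in 89, with a median of 1.39 points. The 95% interval of a window had a median width of 15.9 points.

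By these differences, weighted by calls, the 3 highest windows lay on chromosome 11 between 40000001 and 50000000 (11.8 points) and on chromosome 7 between 10000001 and 20000000 (9.71 points) and between 60000001 and 70000000 (9.09 points). The 3 lowest lay on chromosome 3 between 20000001 and 30000000 (-7.73 points), on chromosome 21 between 1 and 10000000 (-7.48 points) and on chromosome 13 between 20000001 and 30000000 (-6.61 points). Positions are those of the files, for which the labels name GRCz10. The weights let single deep libraries set a window's difference. In the window of chromosome 3, EGFP +ve replicate C of 21 dpf had 105 of 214 calls methylated (49.1%). Replicates A and B of that age had 80.0% and 87.3%, within and above the 72.2% to 80.6% of their controls. At 14 dpf EGFP +ve replicates A and B had 73.8% and 73.6%, below controls of 76.6% to 78.1%, and C had 87.3%, above them. In the window of chromosome 11 the library means were 63.3% in EGFP +ve against 74.7% in control cells at 14 dpf, and 80.7% against 59.1% at 21 dpf, opposite ways at the 2 ages. The 3 lowest windows also went opposite ways. Chromosome 21 had 64.6% against 87.5% at 14 dpf and 74.3% against 66.0% at 21 dpf. Chromosome 13 had 64.6% against 75.2%, then 74.4% against 71.9%, and chromosome 3 had 78.3% against 77.6%, then 72.1% against 75.8%. Both windows of chromosome 7 were higher in EGFP +ve cells at both ages. The mean levels of the windows over both ages lay between 64.8% and 90.4% in EGFP +ve cells and between 65.5% and 89.4% in controls.

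Chromosome 4 carries the sex-linked region of wild zebrafish at the end of its long arm, which is repeat-rich, poor in protein-coding genes and late-replicating. The long arm, taken as the sequence after 25 Mb without the fem-rDNA region, was methylated at 85.5% ± 3.85 (SD, n = 6) in the germline and 84.4% ± 1.84 (SD, n = 6) in controls. The part before 25 Mb had 71.4% ± 7.95 (SD, n = 6) and 71.4% ± 4.98 (SD, n = 6). In all 12 libraries the long arm was above the part before it, by 4.93 to 20.7 points, and above the other chromosomes. Chromosome 4 as a whole ranked highest of the 25 in control cells and 2nd in EGFP +ve cells.

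No difference in this gradient between the kinds of cell passed the test. Relative to the other 24 chromosomes of the same library, the long arm was higher by 13.3, 9.27 and 4.97 points in the EGFP +ve libraries of 14 dpf. In the controls of 14 dpf it was higher by 9.32, 9.29 and 4.91 points. For 21 dpf the EGFP +ve libraries had 5.20, 6.66 and 9.66 points. The controls of 21 dpf had 10.1, 10.6 and 5.54 points, and the groups overlapped at both ages. EGFP +ve minus control gave -0.13 points (SE 1.75; exact permutation test, p = 0.880), with an interval from -4.35 to 4.12. The long arm held 2.25% to 3.50% of the calls of chromosomes 1 to 25 in EGFP +ve libraries and 2.22% to 3.27% in control libraries. The difference of this share was 0.11 points (SE 0.20; exact permutation test, p = 0.565).

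The fem-rDNA is a ribosomal DNA array at the end of the long arm of chromosome 4 that is known for its amplification in the female zebrafish germline. Its position was taken as the 20 kb of chromosome 4 with most calls in 8 EGFP +ve libraries of 25 and 28 dpf, which are not among the 12, and lay at 76313463 to 76333462. Those 8 libraries had 26062 calls there. At 14 and 21 dpf the region held 37 reads with 483 calls over the 12 libraries. EGFP +ve libraries had 1, 2 and 4 reads at 14 dpf and 0, 1 and 5 at 21 dpf. Control libraries had 3, 5 and 2 reads at 14 dpf and 3, 0 and 11 at 21 dpf. With 0 reads the share in EGFP +ve replicate A of 21 dpf can be up to 0.0805% of its reads, and that in control replicate B up to 0.0744%, the share that 3 reads would make. On the log2 scale of the percentage of reads, with 0.5 reads added, the share differed by 0.07 (SE 0.60; exact permutation test, p = 0.915), with an interval from -1.27 to 1.38. Shifts within those limits were not rejected by the test, and the size of difference that these libraries could detect was not tested.

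Most reads of the fem-rDNA were largely methylated. Of 37 reads, 35 had at least as many methylated as unmethylated calls, 8 were fully methylated and 1 was fully unmethylated. That read, with 17 unmethylated calls, was the only read of the region in EGFP +ve replicate A of 14 dpf. In sum, 133 of 186 calls (71.5%) were methylated in EGFP +ve cells and 245 of 297 (82.5%) in control cells. Per library the methylation was 0%, 76.9% and 91.7% in EGFP +ve cells at 14 dpf. Controls of 14 dpf had 75%, 87.9% and 91.7%. At 21 dpf EGFP +ve replicates B and C had 100% and 64.1%, and control replicates A and C had 63.2% and 86.0%. The groups overlapped, and the mean difference was -10.6 points (SE 17.9; exact permutation test, p = 0.733, smallest possible p 0.0167, with the 2 libraries that have no call there left out). Without EGFP +ve replicate A of 14 dpf it was 3.44 points.

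Unplaced scaffolds, sequences that the assembly does not assign to a chromosome and that are often repetitive, took 1.90% to 2.68% of the reads of an EGFP +ve library. In control libraries they took 2.03% to 2.61%. This share differed by -0.0941 points (SE 0.156; exact permutation test, p = 0.535). The calls, 6623 in all, were spread over 536 scaffolds, of which 2 had a call in all 12 libraries.

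Apart from control replicate B of 21 dpf (74.3% against 74.7%), the methylation of the scaffolds was above the global methylation of the same library. At 14 dpf the EGFP +ve libraries had 78.8%, 83.9% and 87.0%. Controls of 14 dpf had 82.2%, 82.5% and 80.5%, within the range of the EGFP +ve libraries. At 21 dpf EGFP +ve libraries had 81.4%, 85.2% and 82.2%. Controls of 21 dpf had 79.2%, 74.3% and 80.6%, all lower. The mean difference was 3.22 points (SE 1.68; exact permutation test, p = 0.0950, adjusted p = 0.404). With each library left out it was 2.26 to 4.33 points (exact permutation test, p from 0.005 to 0.215, lowest adjusted p 0.085). The p was under 0.05 in 1 of these 12 omissions. The scaffold with most calls, KN149861.1, held 10.4% of the scaffold calls, and 92.3% of its 286 calls in EGFP +ve cells and 88.4% of its 405 calls in control cells were methylated. Its library values were between 90.6% and 95.8% in EGFP +ve cells and between 70.0% and 96.4% in controls, with as few as 10 calls in a library.

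The mitochondrial genome is present in many copies per cell and, in vertebrates, is held to carry little or no CG methylation. Its reads were few, 74 of 28803 in EGFP +ve libraries and 28 of 47481 in control libraries. At 14 dpf the EGFP +ve libraries had 4, 2 and 4 mitochondrial reads, or 0.153%, 0.0396% and 0.130% of their reads. The controls of 14 dpf had 0, 3 and 6 reads, or 0%, 0.0368% and 0.0713%, where 0 reads allow a share of up to 0.0669%. At 21 dpf the EGFP +ve libraries had 7, 47 and 10 reads, or 0.188%, 0.910% and 0.109%. The controls of 21 dpf had 10, 3 and 6 reads, or 0.142%, 0.0744% and 0.0391%. EGFP +ve replicate B of 21 dpf stood far above the rest, with a 95% Wilson interval from 0.685% to 1.21% that covers counting error only, and the groups overlapped at both ages. Reads amplified without molecular identifiers are not independent molecules.

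On the log2 scale of the percentage of reads, with 0.5 reads added, the mitochondrial share was higher in EGFP +ve cells by 1.73 (SE 0.72; exact permutation test, p = 0.0350, adjusted p = 0.227). The interval ran from 0.27 to 3.30. Without EGFP +ve replicate B of 21 dpf the difference was 1.29 (exact permutation test, p = 0.0650), and without control replicate A of 14 dpf, which had 0 reads, it was 1.33 (exact permutation test, p = 0.0650). In libraries of a shared run it was 1.96. Fewer nuclear genomes and more mitochondrial genomes per cell cannot be told apart in such a share.

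**Figure D5:**
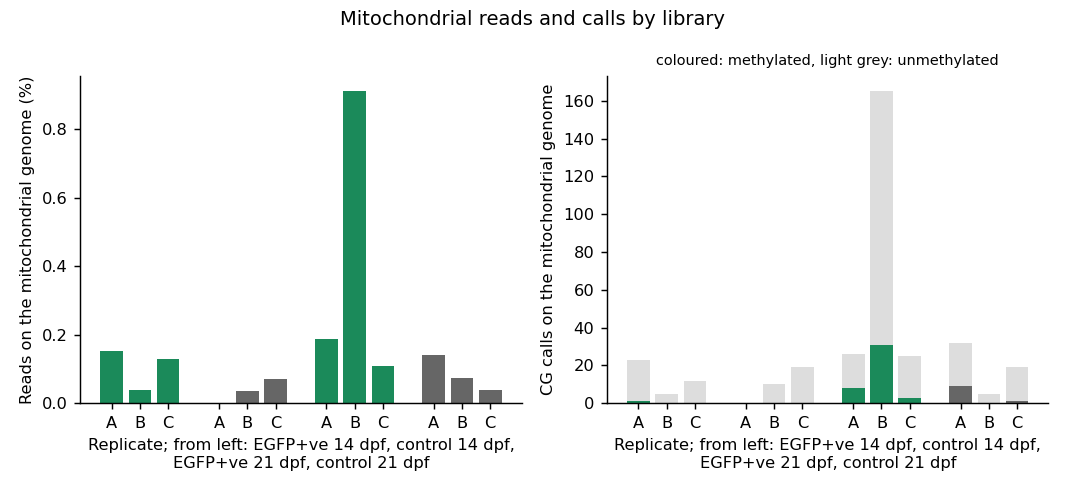
Left, reads on the mitochondrial genome as a percentage of the reads with a CG call in each of the 12 libraries. Right, CG calls on the mitochondrial genome, methylated (coloured) and unmethylated (light grey), in the same order. EGFP +ve replicate B of 21 dpf has 47 reads and 165 calls, of which 31 are methylated.

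Among the 12 libraries, methylated calls on the mitochondrial genome were found almost entirely at 21 dpf. Failed bisulfite conversion and mis-mapped reads can also give such calls, and their part was not tested. The neighbouring ages are given for libraries with at least 10 mitochondrial calls. At 11 dpf 0% to 11.5% of calls were methylated in EGFP +ve libraries (n = 3) and 9.09% to 19.0% in controls (n = 2). At 25 dpf 1 control library had 0%. At 14 dpf 1 of 69 calls was methylated, and at 21 dpf 52 of 272 were (19.1%), or 21 of 107 (19.6%) without EGFP +ve replicate B. Both kinds of cell had them at 21 dpf, with 42 of 216 calls (19.4%) in EGFP +ve cells and 10 of 56 (17.9%) in controls. By library, EGFP +ve replicates A, B and C of 21 dpf had 8 of 26, 31 of 165 and 3 of 25 methylated calls. The controls of 21 dpf had 9 of 32, 0 of 5 and 1 of 19. The calls came from 31 of 83 reads at 21 dpf, of which 4 were fully methylated and 27 mixed. By run at 21 dpf, 48 of 228 calls (21.1%) were methylated on run 92 and 4 of 44 (9.09%) on run 117. The library of 14 dpf on run 92 had 0 of 5, and what the run adds was not tested. Between kinds of cell, methylation of this genome differed by 3.00 points (SE 6.43; exact permutation test, p = 0.600, smallest possible p 0.05, with 3 libraries of fewer than 10 calls left out).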

How the data were processed

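Low coverage whole genome bisulfite libraries were made by the authors with post-bisulfite adaptor tagging and deposited as 1 file per library with 1 line for each CG call, neither normalized nor pooled across replicates. Calls were counted here from those deposited lines. The submitters' processing notes name Trim Galore, Bismark 0.19.0 and GRCz10. The study's methods name GRCz11, but the highest position on chromosome 4 in the files is 76624474, before the fem-rDNA of that build, so the positions were kept as given. No genome or annotation of this build was used here, so annotation classes were not compared and no sequences are shown.

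Python 3.11.15, numpy 2.4.6, pandas 2.3.3, scipy 1.17.1, matplotlib 3.10.9 and R 4.3.3 with limma 3.58.1 were used. The comparisons and the rule for named regions were chosen with earlier results of these data known. Chromosome 4, the mitochondrial genome and the fem-rDNA are always named, with the 3 highest and 3 lowest chromosomes and windows where none was called. Nothing in the labels says whether libraries came from separate clutches, so p-values measure the spread between libraries. Alternatives were repeat reads counted once, shared runs, a replicate block, other windows, thresholds and denominators (including the study's totals of unique mapped reads), and leaving out each library. The exact permutation test of chromosomes and the limma test of windows were tested on simulated data.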

Additional observations from a re-analysis of the deposited data

Results flagged for a closer look

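The methylation of unplaced scaffolds differed between EGFP +ve and control cells by 3.22 points at 14 and 21 dpf together and by -3.53 points at 25 dpf. The change between these ages was 6.74 points (exact permutation test, p = 0.0247), and after adjustment over 15 measures p was 0.370. It was flagged for an unadjusted p under 0.05 by this exact permutation test. That held for 1 of 15 measures against 25 dpf, 0 of 15 against 11 dpf and 0 of 15 between 14 and 21 dpf. None passed after adjustment. At 25 dpf the EGFP +ve libraries had 77.6% to 78.7% and the controls 79.7% to 83.8%.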

How the results depend on the processing

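No alternative and no left-out library brought any of the 17 measures, the 25 chromosomes or the windows past an adjusted p of 0.05. Over the alternatives, global methylation differed by 1.16 to 2.21 points, and by 0.74 to 1.62 points with each library left out. Within shared runs the direction turned for reads with 8 or more calls (1.15 points), the share of reads on scaffolds (0.0131 points), the long arm of chromosome 4 against other chromosomes (0.75 points), its share of calls (-0.0205 points) and the log2 share of fem-rDNA reads (-0.19). With windows of at least 100 calls the change of the global difference from 14 to 21 dpf was -0.74 points. The causes were not tested. With each library left out, the difference crossed 0 for reads with 8 or more calls (-2.04 to 0.13 points), the scaffold share (-0.190 to 0.00101), mitochondrial methylation (-2.72 to 8.71), the long arm (-1.15 to 0.92) and its share of calls (-0.0226 to 0.213), the fem-rDNA share (-0.31 to 0.34 on the log2 scale) and fem-rDNA methylation (-19.5 to 3.44). The last could not be tested once any of the 4 libraries of 21 dpf with calls there was left out.

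With the replicate block (differences between libraries of the same letter and age), the global difference was 1.26 points (exact permutation test, p = 0.344), and the block changed no call. The deviations over chromosomes of the 6 pairs of the same letter and age had correlations from -0.308 to 0.252, with 1 above 0.1. Counting error at this depth can hide a pairing, so these values cannot show whether the letters pair the libraries. The difference between the ages in reads with 1 call was 4.03 to 5.12 points with each library left out (adjusted p from 0.0425 to 0.102 by the exact permutation test). Depth limits the fem-rDNA and mitochondrial values most, since they rest on 37 and 102 reads.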

Other observations

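Other properties of the reads were compared between 14 and 21 dpf over both kinds of cell, a contrast chosen after the values were seen. Among reads with 4 to 7 calls, the fully methylated share was higher at 21 dpf by 3.50 points over both kinds of cell (exact permutation test, p = 0.01, adjusted p = 0.0567). Mixed reads differed by -3.70 points (exact permutation test, p = 0.0200, adjusted p = 0.0680). Discordant neighbouring calls differed by -1.42 points (exact permutation test, p = 0.01, adjusted p = 0.0567). The share of calls on the long arm of chromosome 4 was higher by 0.56 points (exact permutation test, p = 0.0200, adjusted p = 0.0680). Methylation of the mitochondrial genome was higher at 21 dpf by 17.5 points, in libraries with enough calls there (exact permutation test, p = 0.0333, adjusted p = 0.0944). With reads with 1 call included, 6 of the 17 measures had an unadjusted p under 0.05 by the exact permutation test. None passed after adjustment over the 17 measures. Without control replicate A of 14 dpf the fully methylated share differed by 3.98 points and the discordant calls by -1.67 points, and without EGFP +ve replicate A of 21 dpf by 4.10 and -1.62 points, each then with an adjusted p of 0.0425 (exact permutation test). The share of reads with 1 call was 25.6% to 28.2% of a library at 14 dpf and 22.8% to 25.6% at 21 dpf. Any parts of age, run and dissection in these values cannot be told apart. Failed bisulfite conversion can also give methylated mitochondrial calls, and its part in these differences was not tested.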
